A study of Homo sapiens with 10 samples.

Results

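The genes described here are the 4 human tropomyosin genes, TPM1, TPM2, TPM3 and TPM4, and 6 genes of contractile actin filaments, ACTA2, TAGLN, TAGLN2, MYL9, CNN1 and CNN2. The rule takes every probe set whose gene symbol in the array annotation is one of these 10; it has no threshold on measured values, although the list was drawn up with earlier results of these data known. Each of the 10 genes had 1 probe set, so 10 of the 48144 gene-level probe sets tested, or 10 of 29403 genes with a symbol, are described. The cells, UT-SCC-12a, are a long-established human cell line from a cutaneous squamous cell carcinoma, which arises from skin keratinocytes. The study compared cells of this line with stable lentiviral overexpression of the microRNA miR-23b-3p with cells that carried a scrambled RNA, both delivered as shMIMIC lentiviral microRNAs. Total RNA of 5 samples per group was read on Affymetrix HuGene 2.0 ST arrays. The labels do not say whether a group was 1 clone or a pool, or whether its 5 samples came from separate cultures, and the p-values then cover only the variation among these samples, which may be technical.

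Tropomyosins are coiled-coil proteins that lie end to end along actin filaments and control which myosins and which severing or branching proteins reach them. ACTA2 encodes smooth muscle alpha-actin, MYL9 a regulatory light chain of myosin II, and calponins and transgelins are related proteins that bind the sides of actin filaments. Where carcinoma cells make these proteins, the proteins belong to stress fibres and the cell cortex. Several of the genes respond to the transcription factor SRF and its actin-sensing partners, the MRTF proteins, which read actin monomers in the cell.

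The microRNA that distinguishes the groups is shown first because it is the agent of the comparison. The capitals mark its seed, bases 2 to 8, the part that pairs with target transcripts. The sequence is from RefSeq, build GRCh38.p14, chr9:95085265-95085287, plus strand.
hsa-miR-23b-3p: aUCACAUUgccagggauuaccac

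Promoter sequence bears on these genes because SRF binds the CArG box, a run of 6 A or T bases between a pair of C and a pair of G bases. RefSeq promoter windows of 300 bases, from 250 before to 50 after a start site, were searched on both strands for an exact CArG box. Of 35116 windows in the table, 454 held one, or 1.29%. Windows were found for 8 of the 10 genes, 15 windows in all. TAGLN and MYL9 had no window, so their promoters were not searched. Of the 15 windows 2 held an exact box, 1 of TPM4 and 1 of CNN2. With 1 G or C allowed in the core, 8.13% of all windows and 3 member windows matched, the third being 1 of ACTA2. Stretches of 100 bases around these matches are shown, with the matches in capitals and each stretch on the strand of its gene. The TPM4 stretch is chr19:16067320-16067419 (plus strand), the CNN2 stretch chr19:1026474-1026573 (plus strand) and the ACTA2 stretch chr10:88952815-88952914 (minus strand), all in GRCh38.p14.
TPM4: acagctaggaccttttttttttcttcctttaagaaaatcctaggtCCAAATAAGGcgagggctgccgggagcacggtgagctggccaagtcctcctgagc
CNN2: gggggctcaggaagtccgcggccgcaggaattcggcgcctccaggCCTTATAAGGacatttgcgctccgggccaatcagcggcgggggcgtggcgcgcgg
ACTA2: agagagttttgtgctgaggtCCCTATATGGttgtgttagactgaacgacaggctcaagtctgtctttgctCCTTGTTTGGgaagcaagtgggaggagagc
The box of TPM4 begins 173 bases before its start site and that of CNN2 89 bases before. The ACTA2 window held 2 degenerate boxes, which begin 121 and 71 bases before the start. A match is a description of these letters and not a measured binding site.

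Values are log2 RMA values, which are background corrected, quantile normalized and summarised per probe set, so a difference of 1 is a doubling. Median values per array lay between 3.14 and 3.19, and within a group the Pearson r of array pairs, taken across probe sets, ran from 0.991 to 0.994. The number of arrays limits the precision. Antigenomic probe sets, which match no human sequence and show background, had means between 1.84 and 6.22, with a median of 2.37. The keratinocyte markers KRT5, TP63, DSG3 and ITGB4 had means above 8 in both groups, while KRT14, KRT6A and KRT17 stood below 4. KRT16 stood at 4.37 with miR-23b-3p and at 4.29 in controls. The label was thus borne out by some keratinocyte markers and not by others. Whether the low keratin values show low expression was not tested. Of 6 smooth muscle markers 5 had a mean under 4, as did 6 of 8 fibroblast markers. Poly-A spikes, which are bacterial transcripts put into each sample as labelling controls, stood at 5.35 ± 0.0931 (SD, n = 5) with miR-23b-3p and at 5.46 ± 0.0201 (SD, n = 5) in controls (exact two-sided permutation p = 0.0238), and with their value per array as a covariate limma called 2 probe sets in all, 0 of them members or related genes.

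No member passed the test. The comparison was overexpressing minus control, fitted with limma over all tested probe sets with Benjamini-Hochberg adjustment and a threshold of 0.05. Of the 10 members 0 were called, by limma and also with the variance of each probe set taken per group, where limma called 9 of 48144 probe sets, or 0.0187%. At an unadjusted p under 0.05 there was 1 member, TPM2, which was higher, and 0 were lower. Of all probe sets 6.63% were past that p, 3.67% higher and 2.95% lower, so 1 member of 10 is near the background. Groups that do not overlap were found for 0 members and for 1.35% of all probe sets. In the overexpressing cells 7 members stood higher and 3 lower, with a median log2 difference of 0.054 against 0.002 over all probe sets, of which 50.8% were higher. Adjusted p of the members lay between 0.692 and 0.998.

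**Figure D1:**
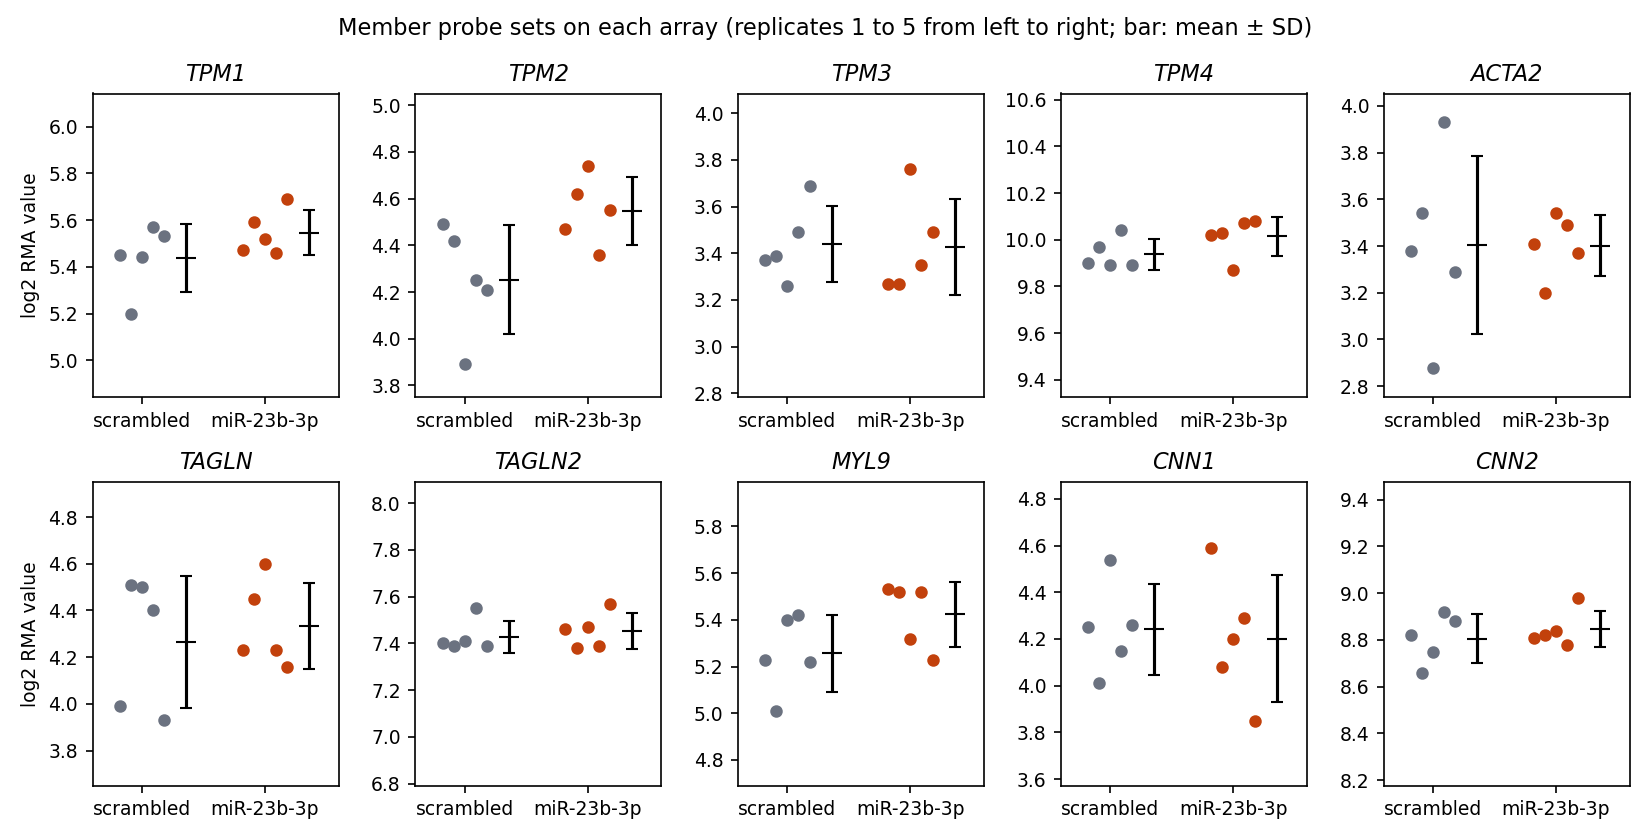
Log2 RMA value (y axis, the same span in every panel) of each member on the 5 scrambled control arrays (grey) and the 5 miR-23b-3p arrays (orange), with the mean and SD beside the points. The groups overlap in all 10 panels, and the TPM2 panel has the widest gap between means, 4.25 in controls and 4.55 with miR-23b-3p.

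TPM2 (hg19, chr9:35681989-35691017, minus strand, 18 probes), which encodes the beta tropomyosin of muscle and of stress fibres, had the largest difference of the members. In overexpressing replicates 1 to 5 it stood at 4.47, 4.62, 4.74, 4.36 and 4.55. In control replicates 1 to 5 it stood at 4.49, 4.42, 3.89, 4.25 and 4.21. The overexpressing arrays all lay above the control mean, but only 3 of 5 lay above the highest control, so the groups overlapped. The mean was 4.55 ± 0.144 (SD, n = 5) with miR-23b-3p and 4.25 ± 0.233 (SD, n = 5) in controls, a log2 difference of 0.30 (SE 0.111, 95% interval 0.05 to 0.54), or 1.23-fold. Limma gave TPM2 an unadjusted p of 0.0203, rank 1409 of all probe sets, and an adjusted p of 0.692, and its exact two-sided permutation p was 0.0476. Without overexpressing replicate 3 the TPM2 difference had an unadjusted limma p of 0.0545. In the authors' deposited table TPM2 has a fold of 1.2203 with p = 0.0368 and q = 0.687. The TPM2 level lies within the range of the antigenomic probe sets, and the part of background in its signal was not tested.

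TPM1 (hg19, chr15:63334831-63364114, plus strand, 29 probes) encodes alpha tropomyosin, whose isoforms are found in muscle and in stress fibres of other cells. On the overexpressing arrays TPM1 stood at 5.47, 5.59, 5.52, 5.46 and 5.69, and on the control arrays at 5.45, 5.20, 5.44, 5.57 and 5.53. Control replicate 2 was the lowest and overexpressing replicate 5 the highest of the 10, and 2 overexpressing arrays lay above every control. The log2 difference of TPM1 was 0.11 (SE 0.0803, 95% interval -0.07 to 0.28; limma adjusted p = 0.856). With the poly-A spike value of each array as a covariate, a fit added after the data were seen, the TPM1 difference was 0.23 (SE 0.102, limma adjusted p = 0.745). The spike value itself differed between the groups, so its part and that of the group cannot be fully told apart in such a fit.

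TPM4 (hg19, chr19:16178317-16213813, plus strand, 23 probes), which encodes a tropomyosin of non-muscle cells, was the brightest member probe set and varied little. Overexpressing arrays read 10.02, 10.03, 9.87, 10.07 and 10.08 for TPM4, and control arrays 9.90, 9.97, 9.89, 10.04 and 9.89. Overexpressing replicate 3 was the lowest of all 10 arrays, while the other 4 overexpressing arrays lay above 4 of the 5 controls. The TPM4 log2 difference was 0.076 (SE 0.0638, limma adjusted p = 0.875), and its 95% interval in fold ran from 0.958 to 1.16.

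TPM3 (hg19, chr1:154127780-154167124, minus strand, 15 probes), the gene of gamma tropomyosin, had a dim probe set. The TPM3 level lies within the range of the antigenomic probe sets, and the part of background in its signal was not tested. TPM3 lay between 3.27 and 3.76 in overexpressing cells (median 3.35) and between 3.26 and 3.69 in controls (median 3.39). The ranges nearly coincide, and the log2 difference of -0.012 (SE 0.107, limma adjusted p = 0.992) was well inside its error. Thus 3 of the 4 tropomyosins stood higher and 1 lower, and none passed the test. Whether TPM2 differed from the other tropomyosins in its response was not tested.

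ACTA2 (hg19, chr10:90694831-90751147, minus strand, 12 probes), whose product marks smooth muscle cells and myofibroblasts, gave the same mean in both groups. It stood at 3.41, 3.20, 3.54, 3.49 and 3.37 on overexpressing arrays and at 3.38, 3.54, 2.88, 3.93 and 3.29 on control arrays. Control replicates 3 and 4 were the lowest and highest of the 10, so the spread of ACTA2 in controls, an SD of 0.382, exceeded that with miR-23b-3p, 0.131. The log2 difference of ACTA2 was -0.002 (SE 0.154, limma adjusted p = 0.998), with a 95% interval in fold from 0.792 to 1.26. Without control replicate 4 the ACTA2 difference was 0.13 and without control replicate 3 it was -0.13, so its sign rests on single arrays.

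Neither transgelin differed between the groups beyond its error. TAGLN (hg19, chr11:117070037-117075508, plus strand, 20 probes), also called SM22-alpha and used as an early smooth muscle marker, lay between 4.16 and 4.60 with miR-23b-3p and between 3.93 and 4.51 in controls. In controls TAGLN was low in replicates 1 and 5, at 3.99 and 3.93, and lay between 4.40 and 4.51 in the others. Its log2 difference was 0.068 (SE 0.132, limma adjusted p = 0.954). TAGLN2 (hg19, chr1:159887897-159895522, minus strand, 25 probes), a widely expressed relative of TAGLN, lay between 7.38 and 7.57 with miR-23b-3p and between 7.39 and 7.55 in controls. Its log2 difference was 0.026 (SE 0.0628, limma adjusted p = 0.963), with a 95% interval in fold from 0.926 to 1.12.

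MYL9 (hg19, chr20:35169887-35178228, plus strand, 16 probes) encodes the light chain whose phosphorylation switches on myosin II in smooth muscle and non-muscle cells. Overexpressing arrays gave MYL9 values of 5.53, 5.52, 5.32, 5.52 and 5.23, and control arrays values of 5.23, 5.01, 5.40, 5.42 and 5.22. Of the overexpressing arrays 3 lay above every control, while replicates 3 and 5 lay among the controls. The MYL9 log2 difference, 0.17 (SE 0.0932, 95% interval -0.03 to 0.37), was the second largest of the members, with an unadjusted limma p of 0.096 and an adjusted p of 0.807. With the poly-A spike covariate MYL9 stood at 0.086 (SE 0.129).

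Neither calponin differed between the groups beyond its error. CNN1 (hg19, chr19:11649579-11661138, plus strand, 23 probes), the smooth muscle calponin, ranged from 3.85 to 4.59 with miR-23b-3p and from 4.01 to 4.54 in controls, a log2 difference of -0.04 (SE 0.131, limma adjusted p = 0.975). CNN2 (hg19, chr19:1026298-1039064, plus strand, 18 probes), the calponin found in many non-muscle cells, stood at 8.81, 8.82, 8.84, 8.78 and 8.98 with miR-23b-3p and at 8.82, 8.66, 8.75, 8.92 and 8.88 in controls. Overexpressing replicate 5 was its highest array and control replicate 2 its lowest. The CNN2 log2 difference was 0.04 (SE 0.069, limma adjusted p = 0.948), with a 95% interval in fold from 0.927 to 1.14.

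**Figure D2:**
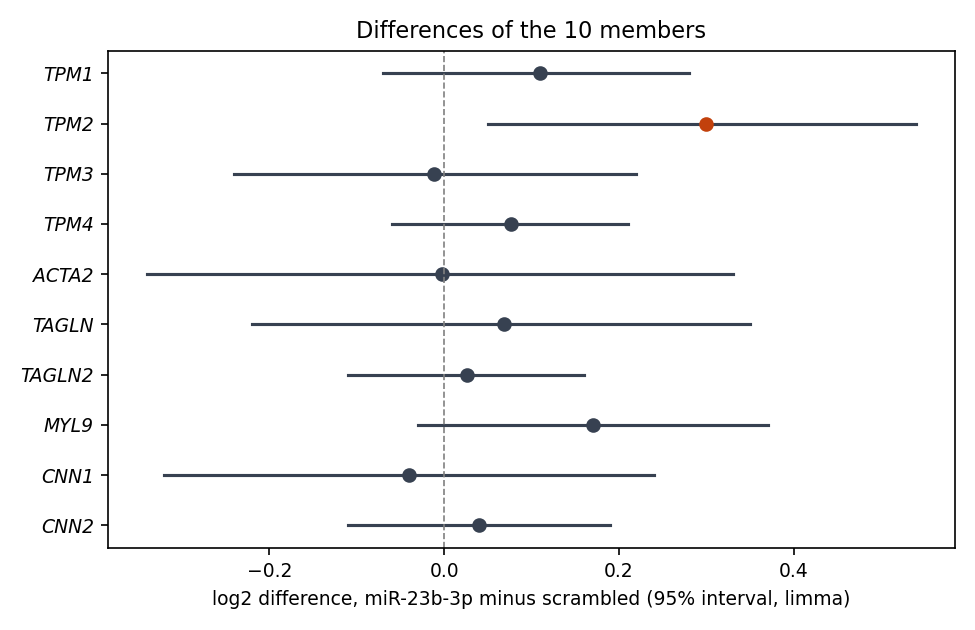
Log2 difference of each member, miR-23b-3p minus scrambled, with its 95% interval from limma on the x axis, and TPM2, the member with an unadjusted p under 0.05, in orange. The TPM2 interval runs from 0.05 to 0.54, and the other 9 intervals include 0.

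The members differed in their spread. The mean levels of TPM4, CNN2 and TAGLN2, the 3 members above every antigenomic probe set, went with residual SDs of 0.0758, 0.0918 and 0.0726. The smooth muscle genes ACTA2, TAGLN and CNN1 had residual SDs of 0.285, 0.239 and 0.237, and TPM2, TPM3, MYL9 and TPM1 of 0.194, 0.185, 0.153 and 0.122, against a median of 0.146 over all tested probe sets. Probe sets with a mean level of 3 to 4 had a median residual SD of 0.179 and those of 8 to 11 one of 0.072. At a level of 4 to 5, where TPM2, TAGLN and CNN1 lie, the median was 0.181. For ACTA2 the interval therefore leaves room for a difference of up to 0.34 on the log2 scale in size, and for TAGLN2 of up to 0.16.

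Deviations from the group means over the 10 arrays were correlated for each of the 45 pairs, as a description without a test. The points share arrays and their normalization. Of the 45 pairs 24 had r above 0, and the median r was 0.04. TPM1 and CNN2 were the most alike, with a Pearson r of 0.93 and a Spearman coefficient of 0.92 over 10 arrays. The r of TPM1 and CNN2 was 0.90 within the overexpressing arrays, 0.95 within the controls and 0.86 without the 2 arrays farthest from the TPM1 median. Next came TAGLN2 and CNN2 at r = 0.72, with a Spearman coefficient of 0.57. Their r was 0.90 within the overexpressing arrays and 0.60 within the controls. Without the 2 arrays farthest from the TAGLN2 median it was 0.13, so it depends much on those arrays. Leaving out the farthest arrays also narrows the range, which can lower r by itself. MYL9 and CNN1 had r = 0.66, with a Spearman coefficient of 0.57. Their r was 0.70 within the overexpressing arrays, 0.65 within the controls and 0.27 without the 2 arrays farthest for MYL9. TPM2 ran against MYL9 at r = -0.58 and against CNN1 at r = -0.55. These pairs were picked after their values were seen.

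**Figure D3:**
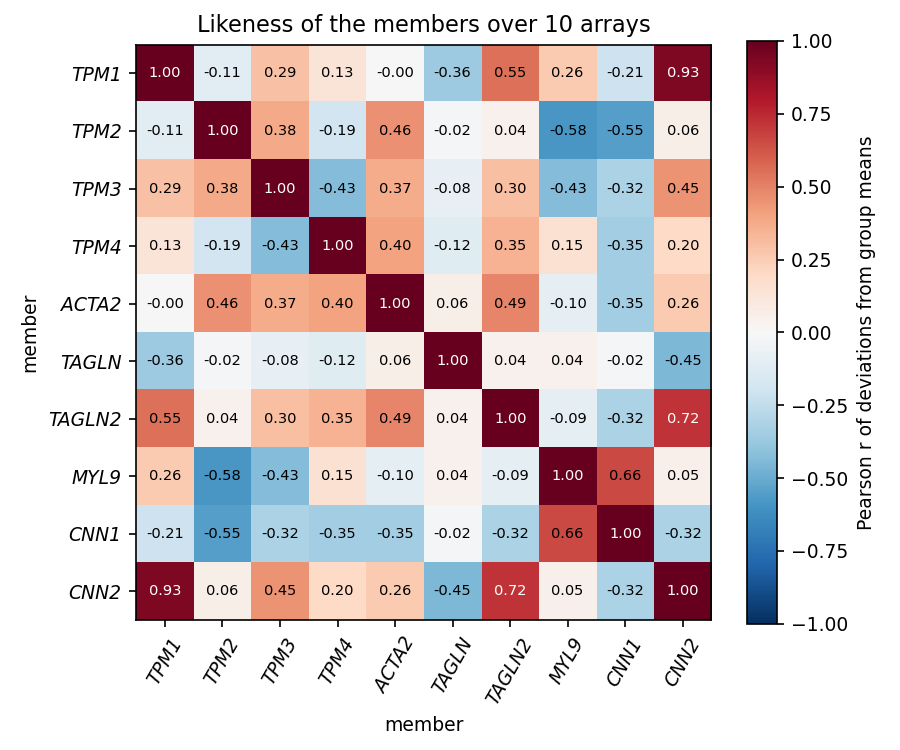
Pearson r (colour and number) between the deviations of each pair of members from their group means over 10 arrays, with members on both axes. The darkest cell off the diagonal is TPM1 with CNN2 at 0.93, and the lowest is TPM2 with MYL9 at -0.58.

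The probe sets most like TPM2, among 10081 with 1 symbol and a mean level of at least 5, were those of UQCC5 (r = 0.94), BMP1, TTLL5 and DGCR2 (r = 0.93 each) and CUL4A (r = 0.92), over the deviations of the 10 arrays. In difference between the groups these 5 stood between -0.15 for UQCC5 and 0.16 for DGCR2, and none was called. These 5 have the highest r of 10081, each over only 10 arrays, so high values follow in part from the choice. How high r runs for other probe sets was not computed.

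Other genes of actin filaments were read in the same fit, from 6 lists with 97 distinct genes measured. Of these 57 stood higher, 38 lower and 2 at 0, with a median log2 difference of 0.016, and 0 were called, with a lowest adjusted p of 0.295. At an unadjusted p under 0.05 there were 7, or 7.22% against 6.63% of all probe sets, 6 of them higher and 1 lower. Groups did not overlap for 4, CIT, TNNI2, PFN2 and FHL2, or 4.12% against 1.35% of all probe sets. The genes are described by list below.

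Of the 5 other actins 2 stood higher and 3 lower, with a median of -0.032. The cytoplasmic gamma-actin ACTG1 differed by 0.088 (SE 0.0585), the skeletal actin ACTA1 by -0.096 (SE 0.136) and the cardiac actin ACTC1 by 0.098 (SE 0.0771), and the last 2 had means under 4. Of 17 genes of non-muscle myosin II and its regulators 12 stood higher and 5 lower, with a median of 0.03. CIT, a kinase of the cleavage furrow, lay between 7.12 and 7.23 with miR-23b-3p and between 7.0 and 7.08 in controls, a difference of 0.14 (SE 0.0547, limma adjusted p = 0.711). PPP1R12A, the targeting subunit of myosin phosphatase, differed by 0.13 (SE 0.0685).

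Of 15 thin filament partners of tropomyosin 9 stood higher and 6 lower, with a median of 0.016. TNNI2, the fast skeletal troponin I, lay between 2.84 and 3.29 with miR-23b-3p and between 2.38 and 2.77 in controls, a difference of 0.37 (SE 0.0985, limma adjusted p = 0.471) at a level near background. The leiomodin LMOD1 differed by 0.15 (SE 0.0691) and the troponin C gene TNNC2 by 0.19 (SE 0.0909), both with means under 4. Among 29 genes of actin bundling, capping and turnover 19 stood higher, 9 lower and 1 at 0, with a median of 0.018. PFN2, a profilin that binds actin monomers, had the lowest p of the 97, lying between 6.48 and 6.62 with miR-23b-3p and between 6.73 and 6.86 in controls. Its difference was -0.27 (SE 0.0577, limma adjusted p = 0.295), so it did not pass. The capping protein gene CAPZA2 stood at -0.14 (SE 0.0666) and the coronin CORO1B at 0.11 (SE 0.0667).

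Of 23 stress fibre and LIM domain genes 12 stood higher, 10 lower and 1 at 0, with a median of 0.002. FHL2, a LIM-only protein of focal adhesions, lay between 7.33 and 7.47 with miR-23b-3p and between 7.16 and 7.23 in controls, a difference of 0.22 (SE 0.0555, limma adjusted p = 0.424). The LIM protein gene CSRP1 differed by 0.17 (SE 0.0652). SYNPO2, which encodes myopodin, differed by 0.21 (SE 0.0957), with means under 4. Of 9 SRF and MRTF regulators, a list that also holds FHL2, 4 stood higher and 5 lower, with a median of -0.014. The SRF partner genes ELK4 and MYOCD stood at 0.12 (SE 0.0836) and -0.092 (SE 0.0677), both with means under 4. SRF itself differed by 0.006 (SE 0.0734), MRTFA by -0.022 (SE 0.0779) and MRTFB by -0.054 (SE 0.0526); these 3 were named after their values were seen.

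**Figure D4:**
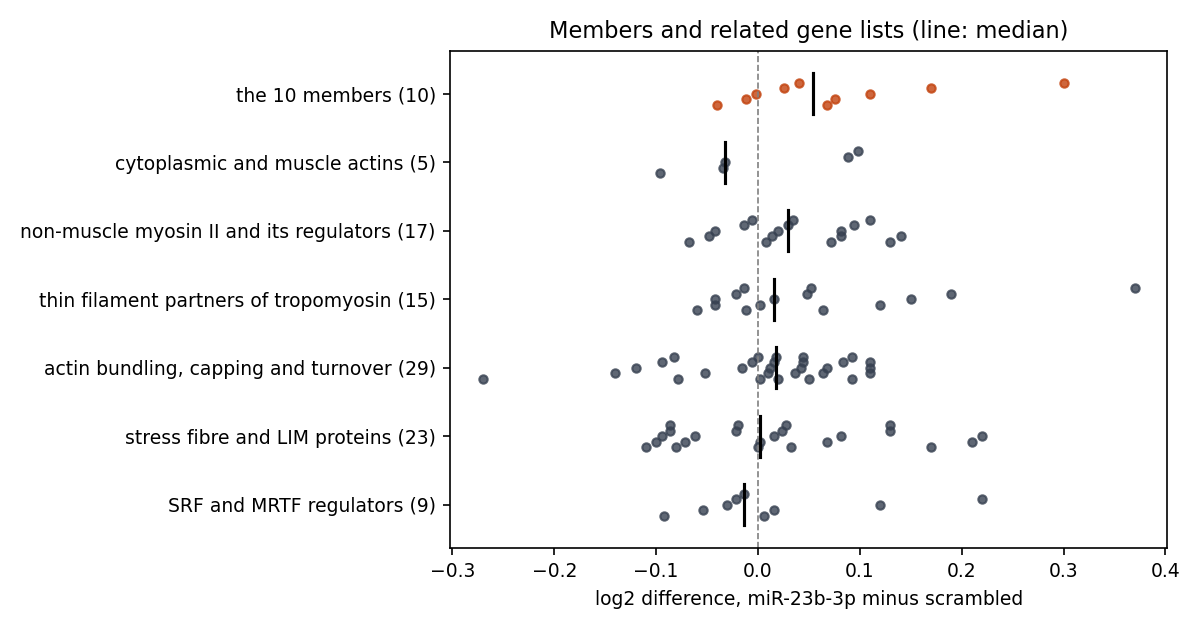
Log2 difference, miR-23b-3p minus scrambled (x axis), of the 10 members (orange) and of the genes of 6 related lists (grey), 1 point a gene, with the number of genes in brackets and a line at the median. All medians lie between -0.032 and 0.054, and the farthest points are TNNI2 at 0.37, TPM2 at 0.30 and PFN2 at -0.27.

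Markers of 4 cell types were read beside the members, and 0 were called. Over the 6 smooth muscle markers the mean level per array lay between 3.52 and 3.71 with miR-23b-3p and between 3.55 and 3.70 in controls, and 4 stood higher and 2 lower. Desmin, DES, lay lower without overlap, at 3.59 against 3.84 (limma adjusted p = 0.65). Over all probe sets 1.35% had groups without overlap. MYH11, smooth muscle myosin, stood at 3.94 against 3.70. The levels of DES and MYH11 lie within the range of the antigenomic probe sets. Over the 8 fibroblast markers the mean level lay between 3.38 and 3.49 with miR-23b-3p and between 3.38 and 3.50 in controls. The 6 skeletal and cardiac muscle markers had mean levels between 3.16 and 3.34 with miR-23b-3p and between 3.10 and 3.20 in controls. Of them 3 stood higher and 3 lower, with MYL2 at 0.22 (SE 0.0928) and MYH2 at 0.23 (SE 0.105), both with means under 4. Of the 8 keratinocyte markers 2 stood higher and 6 lower, with a median of -0.055, KRT6A at -0.21 (SE 0.0931) and mean levels between 6.36 and 6.48 with miR-23b-3p and between 6.40 and 6.53 in controls. The ranges of all 4 lists overlapped between the groups, and their part in the members' values was not tested. In bulk RNA a change in the number of cells of a type and in RNA per cell cannot be told apart.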

How the data were processed

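Total RNA of 10 samples, 5 per group by sample title, was labelled with biotin and hybridized. The deposited log2 values were taken unaltered. They come from RMA (background correction, quantile normalization, median polish), per the file headers, and RMA and Transcriptome Analysis Console are named in the submitters' processing notes. Per the file headers, the authors' deposited comparison used Student's t-test, with p-values, q-values and a signed fold, held as a score. For 48144 of 48144 tested probe sets that fold matched, at a relative tolerance of 0.001, mean unlogged values with miR-23b-3p divided by those of controls, which settles log base and direction. A further 10 per-array columns carry names that no label gives and were not used. Annotation was NetAffx build 36, hg19.

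Probe sets of the main (44629) and rescue (3515) categories were fitted with limma 3.58.1 (lmFit, eBayes) in R 4.3.3 without covariates; 5473 control probe sets were left out. SE is limma's moderated standard error. Every adjusted p of the main fit is limma's with Benjamini-Hochberg adjustment over 48144 probe sets. Alternative fits were adjusted over the probe sets that each one tested, and Welch's test was run outside limma. The exact permutation test runs over 252 choices of 5 of 10 arrays and cannot give less than 0.00794. The fit was tested on simulated data. Members, lists and tests were chosen with earlier results of these data known. All 10 members are named, and up to 3 genes of each related list by smallest p; an item that this rule picks is not reported here. A related gene with several probe sets is given by the brightest. Symbols of related genes were updated through RefSeq (GRCh38.p14). Identical values made up at most 2.16% of any array pair, so none was counted as a duplicate.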

Additional observations from a re-analysis of the deposited data

Results flagged for a closer look

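A single array stood apart from the other 4 of its group for 2 members. TPM4 in overexpressing replicate 3 read 9.87, with the nearest of its group at 10.02 and the highest at 10.08. TAGLN2 in control replicate 4 read 7.55, with the nearest of its group at 7.41 and the lowest at 7.39. The gap, as a share of the group's range, was 0.714 for TPM4 and 0.875 for TAGLN2, above the Dixon critical value of 0.71 for 5 samples. Of 20 groups examined, chance flags about 1.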

How the results depend on the processing

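Member calls numbered 0 in each of the 20 alternative fits, as did calls among related genes, and member groups that do not overlap numbered 0 in each of the 15 alternatives where they were counted. The lowest adjusted p of a member over these fits was 0.627, from limma with the dimmest 25% of probe sets left out. Over all probe sets the 9 calls became 1 with the replicate block, 39 with an intensity trend and robust prior, 3 with Welch's test and 2 with the poly-A spike covariate, and 5 to 8 without a single array. The cause was not tested. Deviations of same-numbered arrays from their group means had correlations between -0.101 and 0.0428, so the numbers were not taken as pairs. In these deviations 0 overexpressing arrays correlated best with their own number. The TPM2 difference lay between 0.28 and 0.35 under the other alternatives and between 0.21 and 0.36 without a single array. With the poly-A spike covariate, whose value differed between the groups, CNN2 stood at 0.13, TAGLN2 at 0.095, CNN1 at -0.20 and ACTA2 at -0.088. None was called. Signs turned for values near 0. TPM3 stood at 0.063 with the poly-A spike covariate and between -0.095 and 0.051 without a single array, ACTA2 between -0.13 and 0.13, TAGLN between -0.016 and 0.13, TAGLN2 between -0.003 and 0.057 and CNN1 between -0.14 and 0.048. The spike covariate and the restriction to cross-hybridization type 1 were added after seeing the data. Each member has 1 probe set, so averaging probe sets alters no value. Levels within the range of the antigenomic probe sets, as for 7 of the 10 members, limit what can be said of small folds. All 10 members had means above the antigenomic median of 2.37.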
